A study of Mus musculus with 8 samples.

Results

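The expression of Prss56 in Paneth cells was set beside that of 8 other serine proteases of epithelia, Prss8, Prss12, Prss23, Prss27, Prss32, Tmprss2, St14 and Klk1, and of Spint1, the membrane inhibitor of such proteases. These 10 genes, of 53801 in the deposited count table, were chosen by symbol, and Prss56 was chosen because earlier results of the same libraries showed counts in the knockouts and none in the controls. The genotype differences of the 10 genes therefore come as a description: fitted changes with their intervals and the calls of the whole-table fit are given, nothing is read from those calls, and no p-value is given for them.

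Viable EpCAM+ Cd24+ Paneth cells were sorted from the small intestine of 4 β-catGOF; Mll1+/- mice, called control 1 to 4, and of 4 β-catGOF; Mll1-/- mice, called knockout 1 to 4. β-catGOF is a β-catenin allele whose exon 3 is removed by Cre, which leaves a protein that escapes degradation, and controls carry it too. Cre was expressed as CreERT2 from the Lgr5 locus (Lgr5-EGFP-IRES-CreERT2), so that recombination starts in Lgr5+ stem cells and is mosaic. By the labels, recombination was induced with 1 mg tamoxifen on each of 3 days (the methods give a dose by body weight), and cells were taken 10 d later. The methods describe the mice of the study as a few weeks old at induction and of both sexes. The labels give neither age nor sex for the sorted mice. The methods paragraph on sorting names mice without β-catGOF, while the results and legends name it for this experiment. Each library was made from sorted cells by Smart-seq2, which copies polyadenylated RNA and amplifies it by PCR. A single animal number stands in the titles of both control 4 and knockout 4, although their genotypes differ, while the figure legends describe the mice of each genotype as independent.

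Serine proteases of the trypsin fold cut proteins with a catalytic serine that acts together with a histidine and an aspartate, and most are made as inactive zymogens that another protease activates. In epithelia, matriptase (encoded by St14) and prostasin (Prss8) act on each other at the cell surface, and the Kunitz-type inhibitor HAI-1 (Spint1) keeps them in check. Paneth cells release antimicrobial peptides at the base of the crypt, and several of these peptides are matured by proteases. Prss56 is known for its role in eye growth and as a marker of boundary cap cells, a source of Schwann cells. No role of it in the intestine is assumed here.

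The bases that encode the catalytic serine are shown for Prss56 and the other proteases. They were found by translating the GENCODE M21 coding sequences (GRCm38, the assembly of mm10) and searching for glycine, aspartate, serine, glycine, glycine in a row, and 8 of the 9 proteases had 1 match. Each line holds 21 bases, 5′ to 3′ on the coding strand, with the serine codon in capitals.

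Prss56 (codon at chr1:87186277-87186279, + strand): cagggtgacTCCgggggccct
Klk1 (codon at chr7:44229420-44229422, + strand): gcgggtgacTCAggaggccca
Prss27 (codon at chr17:24045558-24045560, + strand): aagggtgacTCTggaggccca
Prss32 (codon at chr17:23859086-23859088, + strand): aatggtgatTCCggaggtccc
Prss8 (codon at chr7:127926632-127926634, - strand): cagggtgacTCTgggggccca
St14 (codon at chr9:31090019-31090021, - strand): cagggtgacTCTggtggcccc
Tmprss2 (codon at chr16:97567167-97567169, - strand): cagggagacAGTggagggccg
Prss12 (codon at chr3:123506372-123506374, + strand): cagggagacAGTggaggacca

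The serine codon was of the TCN kind in 6 of these genes, Prss56 among them, and of the AGY kind in Tmprss2 and Prss12, where N is any base and Y is C or T. The exon with the codon began 6 bases before it in 7 of the 8 genes, and 152 bases before it in Prss12. The stretch of Prss56 was identical to that of Prss8 at 19 of 21 bases, to that of St14 at 18 and to that of Prss27 at 17. It shared 14 bases each with Tmprss2 and Prss12. Because the search fixed the amino acids of the motif, bases within it could differ only between codons of the same amino acid. These counts therefore do not show which protease is nearest to Prss56. The coding sequence of Prss23 did not hold this motif, and Spint1 encodes no protease.

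Prss56 lies on the + strand at chr1:87183313-87188405, has 2180 exon bases and shares none of them with another annotated gene. The 250 bases before its RefSeq start are shown because the counts of this gene began from 0 (GRCm38.p6, chr1:87183064-87183313, + strand). Capitals mark matches to CTTTGAA or CTTTGAT, words bound by Tcf/Lef factors, on either strand, and to TATATA.

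Prss56 promoter: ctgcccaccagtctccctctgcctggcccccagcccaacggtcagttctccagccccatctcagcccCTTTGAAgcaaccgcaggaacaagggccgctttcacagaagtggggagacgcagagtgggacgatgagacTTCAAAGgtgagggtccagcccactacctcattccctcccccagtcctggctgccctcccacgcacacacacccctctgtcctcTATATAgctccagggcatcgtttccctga

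The CTTTGAA word on the + strand began 183 bases before the start. The match on the other strand, printed here as TTCAAAG, had its first printed base 113 bases before the start, and TATATA began 29 bases before it. Of the 32851 promoter windows in the table, 7.5% held at least 1 of the CTTTG words and 0.4% at least 2, and 1.4% held TATATA within 50 bases of the start. The words were chosen after this sequence had been read, and a match is a description, not a binding site. None of the other member promoters in the table (13 entries for 7 genes) held a CTTTG word or TATATA near the start. The Prss56 window had 7 CpG dinucleotides against a median of 6 over all windows, and 57% of windows had as few or fewer. Spint1 had 26 CpG and Klk1 had 0.

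Totals on genes were between 13557350 and 14380240 counts in the controls and between 13037832 and 13554171 in the knockouts. Counts were divided by library totals scaled with TMM factors (a trimmed mean that sets aside the most abundant and most changed genes) and are given as normalized CPM. Knockout 3 stood apart, with a factor of 0.632 against 1.22 to 1.34 in the other knockouts and 19662 genes with a count against 22623 to 26074 in the other 7 libraries. Among the 4 knockouts it had the highest level for 6 of the 10 genes and the lowest for 3, and values without it are given beside the members whose direction they turn. Of the 49 tested genes of the lists, 7 turned direction without it. The Paneth cell markers Lyz1, Mmp7, Ang4, Defa17, Pla2g2a and Itln1 summed to 64200 to 149000 CPM in the controls and 58700 to 235000 CPM in the knockouts, the highest in knockout 3. Kmt2a, which encodes Mll1, was counted 719, 469, 268 and 284 times in controls 1 to 4 and 523, 447, 328 and 468 times in knockouts 1 to 4 (log2 fold change, -0.06 ± 0.24 SE, adjusted p = 0.995, edgeR). These counts cover the whole gene and do not show the loss of single exons, so they do not check the labels.

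Prss56 had 0 counts in each of the 4 controls and 331, 270, 201 and 197 counts in knockouts 1 to 4. These correspond to 19.7, 15.5, 23.6 and 11.9 CPM, with a mean of 17.7 ± 5.06 CPM (SD, n = 4). All knockouts were above all controls, and the lowest knockout count was 197. No read fell on the gene among 55606454 control reads. With a floor of 3 counts set for each control library, the mean of the knockouts was 75.9 times the mean floor. This is a lower bound for the ratio of the means and leaves out the spread of the knockouts. The bound lay between 67.2 and 84 when libraries were left out in turn or the scaling was changed, and was 67.2 without knockout 3, 76.1 without control 4 and 84 without knockout 4. Reads copied by PCR from the same molecule were counted separately, so floors cover counting error only. In RNA of pooled cells, a larger share of cells with Prss56 and more Prss56 RNA per cell cannot be told apart.

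**Figure D1:**
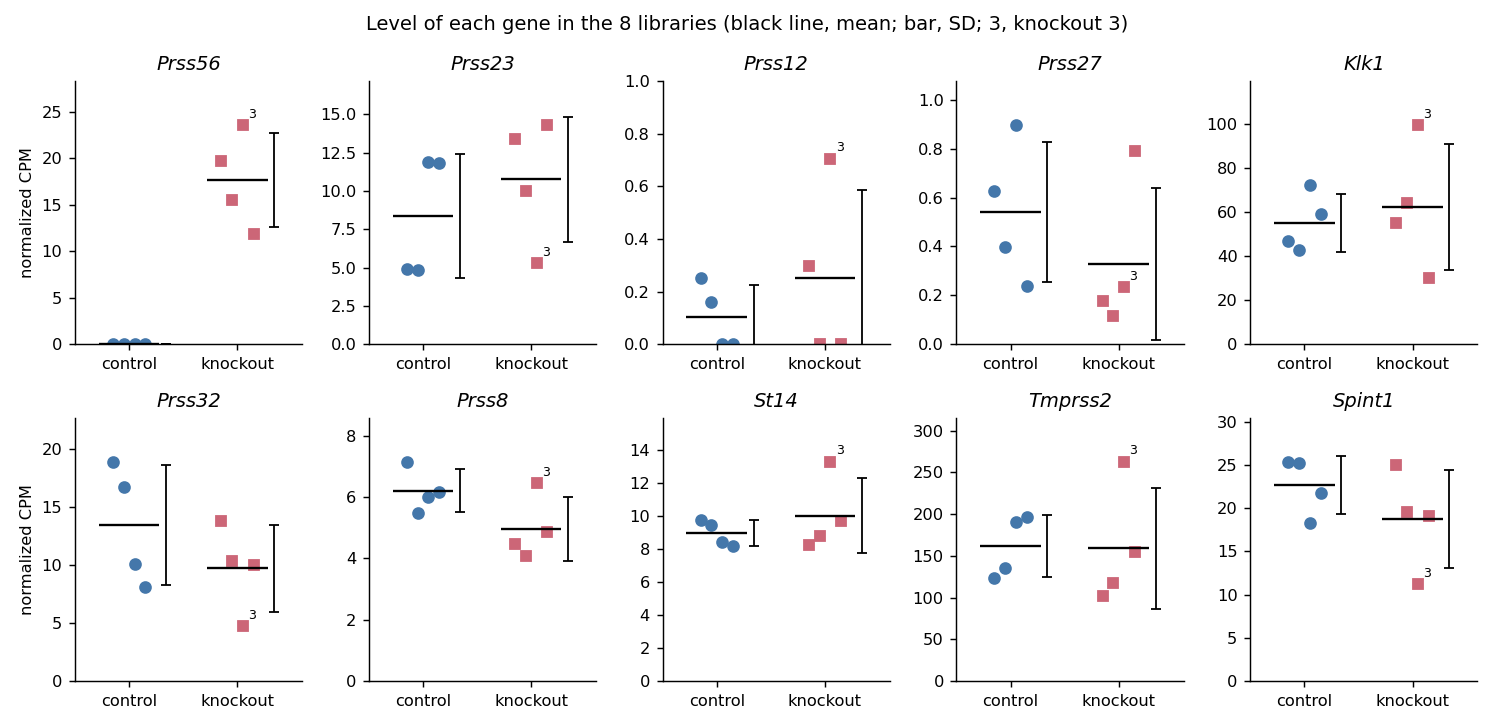
Normalized CPM (vertical axes, each from 0) of the 10 genes in the 4 control (circles) and 4 knockout libraries (squares), with the mean and SD beside them. Prss56 is at 0 in every control and between 11.9 and 23.6 CPM in the knockouts, while the points of the other 9 genes overlap between genotypes.

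The pattern of Prss56 was looked for in the whole table. Of 53801 genes, Prss56 was the 1 gene with 0 counts in every control and at least 10 counts in every knockout, and it stayed the 1 gene with a minimum of 20. With a minimum of 5, a second gene met it, the predicted transcript Gm48232, with 15, 5, 13 and 8 counts in knockouts 1 to 4. In all, 3927 genes had 0 counts in every control and a count in at least 1 knockout. In the reverse direction, 0 genes had no count in any knockout and at least 5 in every control. Prss56 was chosen from this contrast, so these counts describe how rare the pattern was and are no test of it.

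**Figure D2:**
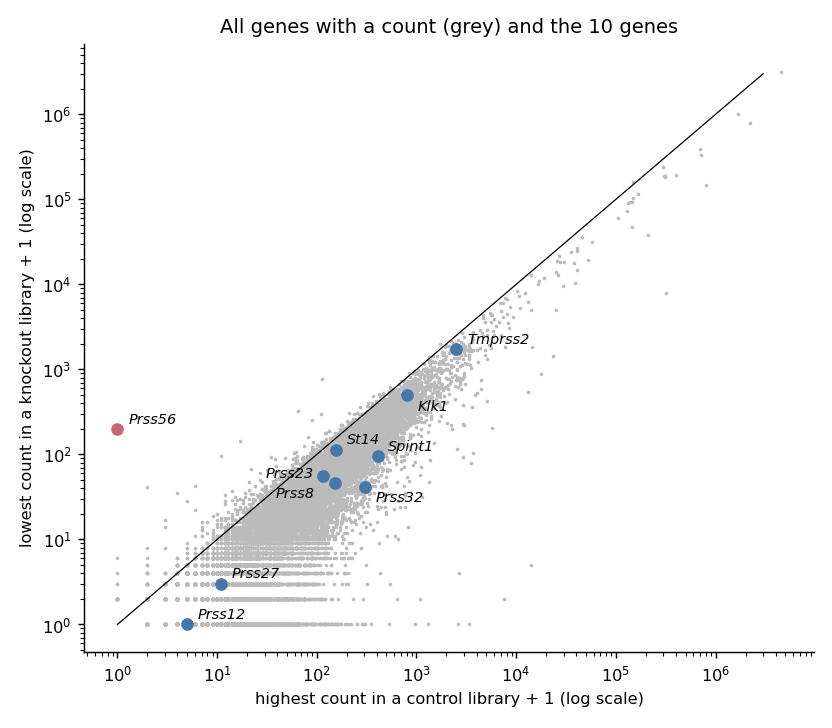
Lowest count in a knockout library + 1 against highest count in a control library + 1 (log axes) for all genes with a count (grey) and the 10 genes (blue, and red for Prss56); the line marks equal values. Prss56 lies at 0 control counts with a lowest knockout count of 197, apart from the grey points, and the other 9 genes lie on or below the line.

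Genes next to Prss56 were examined over 100 kb on each side, where 13 genes are annotated and 8 of them encode proteins. Chrnd and Chrng, subunits of the acetylcholine receptor of muscle, begin 2.2 and 16.3 kb after it. Chrnd had 1, 0, 1 and 0 counts in the controls and 3, 5, 0 and 0 in the knockouts. Chrng had at most 2 counts in any library. Eif4e2, a cap-binding protein 25.5 kb away, was the 1 neighbour with enough counts for the fit, at 21.8 ± 6.15 CPM in the controls and 25.8 ± 2.86 CPM in the knockouts (SD, n = 4 each). Its log2 fold change was 0.24 ± 0.21 (SE, adjusted p = 0.919, edgeR). Of the phosphatase genes on the other side, Alpi, the intestinal alkaline phosphatase of enterocytes, had 9, 17, 8 and 19 counts in the controls and 0, 0, 0 and 42 in the knockouts. Alppl2 had at most 2 counts in a library and Akp3 at most 1. Ecel1, an endopeptidase of neurons, had at most 1, and Efhd1 had 5 counts in control 2 and 0 elsewhere. No neighbour was at 0 in all controls and counted in all knockouts.

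The genes whose levels were most like those of Prss56 over the 8 libraries, by Pearson r of log2(CPM + 1), were Flt1, Spock2, Ptn, Nkd1 and Notum. Flt1, a receptor of vascular endothelial growth factor, had r = 0.988 and Spearman rho = 0.913, with 4, 2, 1 and 0 counts in the controls and 67, 41, 27 and 37 in the knockouts. Spock2, an extracellular proteoglycan, had r = 0.979, and was at 0.269 to 1 CPM in the controls and 16.7 to 36.2 CPM in the knockouts. Ptn, the growth factor pleiotrophin, had r = 0.975, at 6.33 to 9.87 CPM and 28.1 to 51 CPM. Notum and Nkd1, feedback inhibitors of the Wnt pathway, had r = 0.973 and 0.974. Notum was at 0.313 to 0.897 CPM in the controls and 11.3 to 22.2 CPM in the knockouts, and Nkd1 at 5.33 to 7.99 CPM and 30 to 43.8 CPM. The likeness rests mainly on the gap between the genotypes that all 5 genes share with Prss56, and it is given without a test. By Spearman rho, which ties the 4 controls of Prss56, 0 of these 5 genes were among the first 5.

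Besides Prss56, 3 of the proteases are secreted: Prss23, Klk1 and Prss12. Prss23 (chr7:89507783-89527187, - strand) was at 4.89, 4.84, 11.9 and 11.8 CPM in controls 1 to 4 and 13.4, 9.99, 5.29 and 14.3 CPM in knockouts 1 to 4. The genotypes overlapped, and controls 1 and 2 were well below controls 3 and 4. The fitted log2 fold change was 0.37 (95% interval, -0.48 to 1.23). Of its exon bases, 22.9% are shared with the antisense gene Prss23os, and since the strand setting of the counting is not given, reads of the pair cannot be told apart. Libraries carry 2 runs of label numbers, called library sets here: controls 1 and 2 and knockouts 1 and 2 form set 1, and the other 4 libraries set 2. Within set 1, the knockouts had 2.41 times the Prss23 level of the controls, and within set 2 the ratio was 0.824, or 1.2 without knockout 3.

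Klk1, tissue kallikrein, which releases kinins from kininogen, lies at chr7:44225360-44229618 on the + strand. It was at 47.1, 42.8, 72.2 and 59 CPM in the controls and 54.9, 64.3, 99.7 and 30.3 CPM in the knockouts. The knockouts held both the highest and the lowest value. The log2 fold change was 0.17 (95% interval, -0.51 to 0.85), and -0.15 without knockout 3. Within set 1 the knockouts had 1.33 times the control level, and within set 2 the ratio was 0.991, or 0.462 without knockout 3. Klk1 has near-identical copies, the Klk1b genes, so its counts are uncertain where the counting of unique reads could not separate them. Of these copies, Klk1b5 had 7 to 17 counts in the controls and 8 to 23 in the knockouts, and Klk1b9 at most 3 in a library.

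Prss12, neurotrypsin, which cuts agrin at synapses, had 4, 2, 0 and 0 counts in the controls and 5, 0, 6 and 0 in the knockouts. It was too low for the fit, and a difference was not detectable at this depth.

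Tmprss2, St14 and Prss8 are held at the cell surface, and Prss32 and Prss27 are described with them. Of these 5, Tmprss2 was the most abundant per kilobase of exon. Tmprss2 (chr16:97564684-97611195, - strand) is a type II transmembrane protease, anchored by its amino terminus, and is known for cutting the spike proteins of respiratory viruses. It was at 124, 136, 190 and 197 CPM in the controls and 102, 118, 263 and 154 CPM in the knockouts. The genotypes overlapped, with a log2 fold change of -0.02 (95% interval, -0.66 to 0.62) that was -0.38 without knockout 3. Within set 2, the knockouts had 1.08 times the control level, or 0.795 without knockout 3.

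St14 (chr9:31089402-31131853, - strand), on the chromosome that also carries Kmt2a, encodes matriptase, another type II transmembrane protease. It was at 9.78, 9.44, 8.44 and 8.21 CPM in the controls and 8.26, 8.79, 13.3 and 9.7 CPM in the knockouts. Except for knockout 3, all libraries lay between 8.21 and 9.78 CPM. The log2 fold change was 0.15 (95% interval, -0.34 to 0.64), and -0.01 without knockout 3. Within set 1 the ratio of knockouts to controls was 0.887, and within set 2 it was 1.38, or 1.17 without knockout 3.

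Prss8 (chr7:127925716-127930104, - strand) encodes prostasin, which is tied to the membrane by a lipid anchor and raises the activity of the epithelial sodium channel. It was at 7.15, 5.47, 6.01 and 6.16 CPM in the controls and 4.46, 4.08, 6.46 and 4.85 CPM in the knockouts. Knockouts 1, 2 and 4 were below all controls, and knockout 3 was above 3 of them. The log2 fold change was -0.33 (95% interval, -0.89 to 0.24). Prss8 shares 6.6% of its exon bases with Kat8 on the other strand.

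Prss32 (chr17:23843855-23859776, + strand) was at 18.9, 16.7, 10.1 and 8.05 CPM in the controls and 13.8, 10.3, 4.7 and 10 CPM in the knockouts. Its genotypes overlapped, with a log2 fold change of -0.46 (95% interval, -1.22 to 0.31). Within set 2 the ratio of knockouts to controls was 0.812, or 1.11 without knockout 3. It shares 33.1% of its exon bases with Gm15947 on the other strand. Prss27, marapsin, had 10, 5, 10 and 3 counts in the controls and 3, 2, 2 and 13 in the knockouts, and was too low for the fit.

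Spint1 (chr2:119237362-119249527, + strand), the inhibitor of matriptase and prostasin, was at 25.4, 25.2, 18.3 and 21.8 CPM in the controls and 25, 19.6, 11.2 and 19.1 CPM in the knockouts. The ranges overlapped, and knockout 3 was the lowest library. The log2 fold change was -0.27 (95% interval, -0.79 to 0.25). Spint2, which encodes the related inhibitor HAI-2, was at 399 ± 36.4 CPM in the controls and 389 ± 82.6 CPM in the knockouts (SD, n = 4 each).

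**Figure D3:**
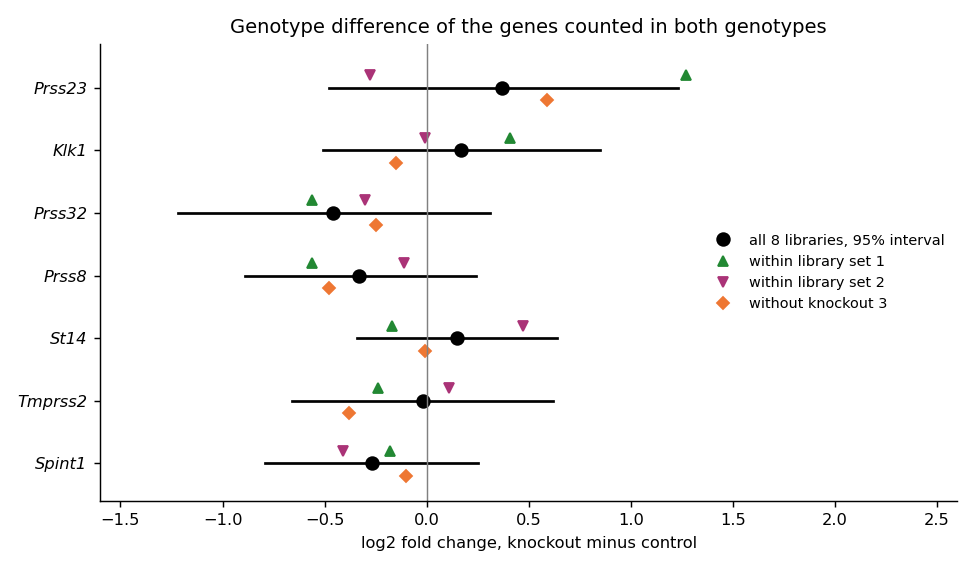
Fitted log2 fold change, knockout minus control, of the 7 genes other than Prss56 that had enough counts (circles; lines, 95% intervals), with the values within each library set (triangles) and without knockout 3 (diamonds). All 7 intervals include 0, and the largest gap between the sets is that of Prss23, 1.27 in set 1 and -0.28 in set 2.

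A gene counted as called when its adjusted p did not exceed 0.05 and its log2 fold change was 0.5 or more, up or down. Of 13439 genes tested, 0.156% were called higher and 0.0298% lower in the knockouts, every knockout was above every control for 2.59%, and below for 1.93%. Of the 10 genes, 8 had enough counts to be tested, and Prss56 was the 1 called and the 1 whose genotypes did not overlap. It was the 1 member called in each of the alternative fits too, and since its choice rested on this contrast nothing is read from that. The intervals of the other 7 still allow changes of different size. That of Prss23 reaches 2.34-fold higher, and that of Prss32 reaches 0.428 of the control level, while that of St14 runs from 0.791 to 1.56 of it.

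The library sets were not used to choose the genes, so a difference between them could be tested, with the genotype in the model. This test was added after the counts had been seen. Tmprss2 had the smallest p of the 10 genes, with a mean of 120 CPM in set 1 and 201 CPM in set 2 (log2 difference, 0.75 ± 0.19 SE, adjusted p = 0.251, edgeR). Prss32 was at 14.9 and 8.2 CPM (log2 difference, -0.83, adjusted p = 0.336, edgeR). Of the 8 members tested 0 were called, and of all genes 0.00744% were called higher and 0.0893% lower in set 2. Prss56 is among these 8, and with 0 counts in every control its difference between the sets rests on the knockouts alone. An unadjusted p under 0.05 was met by 2 members, Tmprss2 and Prss32, and by 10.1% of all genes. In the knockouts, Prss56 had a mean of 17.6 CPM in set 1 and 17.8 CPM in set 2.

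The levels of the genes were compared with each other as CPM per kilobase of exon. In the controls the order was Klk1 (51.3), Tmprss2 (51.2), Spint1 (8.19), Prss32 (7.33), Prss8 (3.35), Prss23 (2.22), St14 (1.17), Prss27 (0.431), Prss12 (0.0393) and Prss56 (0). Klk1 and Tmprss2 overlapped over the 4 libraries, as did Spint1 and Prss32, Prss8 and Prss23, and Prss12 and Prss56. In the knockouts Prss56 held rank 3 of 10, at 8.11 CPM per kilobase, with a range of 5.48 to 10.8. It lay below Tmprss2 in all 4 knockouts, where the lowest value of Tmprss2 was 32.3, and it overlapped with Spint1 (mean, 6.77). Among all genes with a count it was at percentile 95.1, and Spint1 was at percentile 94.3. Not divided by length, Prss56 held rank 4.

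**Figure D4:**
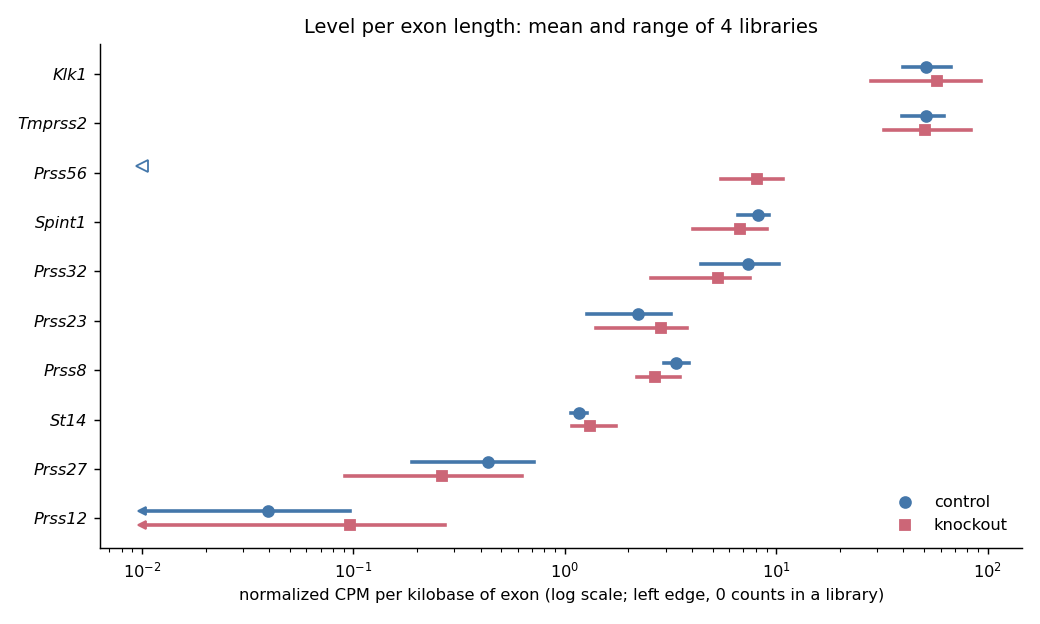
Level per kilobase of exon (log axis) of the 10 genes in controls (circles) and knockouts (squares), as mean and range of 4 libraries; arrowheads at the left edge stand for 0 counts, the open one for Prss56 in all controls. Prss56 in the knockouts holds rank 3, beside Spint1 and below Klk1 and Tmprss2.

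The 8 proteases other than Prss56 summed to 213, 215, 300 and 291 CPM in the controls and 197, 216, 394 and 224 CPM in the knockouts. The sums overlapped between genotypes, came mostly from Tmprss2 and Klk1, and were highest in knockout 3.

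Other genes of the same and neighbouring families were examined on 10 lists with 238 genes, of which 49 had enough counts. With edgeR 0 were called in either direction, and 9 (18.4%) had an unadjusted p under 0.05, against 6.88% of all 13439 genes. Every knockout was above every control for 3 of the 49 (6.12%, against 2.59% of all genes) and below for 3 (6.12%, against 1.93%). DESeq2 called 4 of the 49 higher and 1 lower, against 100 higher and 38 lower of all 13439 genes. The fit by limma-voom with sample quality weights called 2 higher and 1 lower, against 78 and 17 of all genes. Without knockout 3, edgeR called 4 list genes higher, among them Plat and Htra1, against 133 of all genes. The median log2 fold change of all genes tested was 0.00853. Within a list, abundance is given per kilobase of exon, and each gene's own level as CPM.

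Other Prss genes were mostly silent: of 33, 4 had 10 counts in any library and 3 were tested, with a median log2 fold change of -0.55. Prss41 was at 1.6 ± 0.745 CPM in the controls and 4.27 ± 4.5 CPM in the knockouts, of which 10.9 CPM in knockout 3 was the highest. Prss16, a thymic protease, was at 1.67 ± 0.59 and 0.888 ± 0.485 CPM, and Prss30 at 1.56 ± 1.42 and 1.04 ± 0.725 CPM (SD, n = 4 each). None of the 3 separated the genotypes. Among 18 other type II transmembrane proteases 3 were tested (median, 0.23). Tmprss4 was the most abundant of these, at 12 to 14 CPM in the controls and 13.2 to 16.3 CPM in the knockouts, followed by Hpn, which encodes hepsin (2.18 ± 0.653 and 3.77 ± 2.53 CPM). Tmprss7 was at 1.04 ± 0.611 and 0.564 ± 0.463 CPM.

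Of 26 other kallikreins, Klkb1 and Klk1b5 were tested, with log2 fold changes of -0.05 and 0.29. Of 13 pancreatic trypsins, chymotrypsins and elastases, Cela1 was tested (log2 fold change, 0.46). Ctrl had at most 12 counts in a library, and Try5 had 9 in knockout 3 and 1 in knockout 1. Of 22 granule proteases of immune cells, Tpsg1 was tested (log2 fold change, 0.38), while Gzmk and Mcpt1 had at most 6 counts in a library.

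Of 19 proteases of plasminogen activation, coagulation and complement 6 were tested (median, 0.12). Habp2 was the most abundant, at 85.1 ± 23.4 CPM in the controls and 91.6 ± 53.7 CPM in the knockouts, then Hgfac, which activates hepatocyte growth factor (15.2 ± 4.7 and 17.3 ± 7.39 CPM), and C2 (4.75 ± 2.5 and 3.85 ± 0.878 CPM). Without knockout 3 the knockout means of Habp2 and Hgfac were 65.3 and 13.6 CPM, below those of the controls. Plat, tissue plasminogen activator, had 13, 0, 6 and 0 counts in the controls and 77, 102, 5 and 52 in the knockouts (log2 fold change, 3.33 ± 0.95 SE, adjusted p = 0.387, edgeR). Knockouts 1, 2 and 4 were above all controls and knockout 3 was not, and DESeq2 and limma-voom called it higher. F2, prothrombin, was at 3.38 ± 0.789 and 1.71 ± 0.895 CPM (log2 fold change, -0.96, adjusted p = 0.686, edgeR).

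Of 14 serine proteases such as the HtrA and proprotein convertase families 11 were tested (median, 0.19). Htra1, a secreted protease of the matrix, had 13, 6, 8 and 5 counts in the controls and 71, 137, 0 and 62 in the knockouts (log2 fold change, 2.72 ± 0.86 SE, adjusted p = 0.468, edgeR). Knockouts 1, 2 and 4 were above all controls and knockout 3 was below them. Dpp4 was at 20.8 ± 5.31 and 26.4 ± 11.3 CPM and Mbtps1 at 17.7 ± 3.05 and 19.7 ± 1.01 CPM. Prep, named after its values were seen, was above all controls in every knockout (log2 fold change, 0.61, adjusted p = 0.577, edgeR).

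Among 19 Kunitz-type and Kazal-type inhibitors 5 were tested (median, -0.04). Spink4, an inhibitor of goblet and Paneth cells, was the most abundant, at 7480 to 13500 CPM in the controls and 6210 to 14900 CPM in the knockouts. Spink1, the trypsin inhibitor, had 975, 747, 141 and 60 counts in the controls and 472, 512, 0 and 397 in the knockouts. Tfpi2, a matrix inhibitor of plasmin and trypsin, was at 1.76, 2.94, 1.79 and 4.81 CPM in the controls and 7.84, 7.06, 12.5 and 7.28 CPM in the knockouts. All knockouts were above all controls (log2 fold change, 1.61 ± 0.37 SE, adjusted p = 0.21, edgeR), and DESeq2 called it higher. Tfpi, which inhibits coagulation, was at 33.9 ± 8.06 and 25.5 ± 3.18 CPM.

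Of 63 serpins 10 were tested, 7 of them fitted lower (median, -0.21). Serpinb1a, an intracellular inhibitor of neutrophil elastase, was the most abundant and had the smallest p of all 49 list genes. It was at 52.8, 64.4, 75.6 and 59.1 CPM in the controls and 40.6, 39.3, 29.1 and 32 CPM in the knockouts. All knockouts were below all controls (log2 fold change, -0.84 ± 0.18 SE, adjusted p = 0.146, edgeR), and DESeq2 and limma-voom called it lower. Serpina1c, an α1-antitrypsin gene with near-identical copies, was also below in every knockout (3.45 ± 1.62 and 1.27 ± 0.606 CPM, adjusted p = 0.513, edgeR), and so was Serpini1, neuroserpin, named after its values were seen, with 0.235 CPM in knockout 3. Serpinb6a (26.5 ± 4.61 and 28.2 ± 5.97 CPM) and Serpinb9f (7.16 ± 1.12 and 7.12 ± 2.38 CPM) overlapped, and the knockout mean of Serpinb6a was 25.9 CPM without knockout 3.

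Of 14 substrates and partners of matriptase and prostasin 7 were tested (median, -0.07). Epcam, which matriptase cuts and which was used in the sort, was at 282 ± 12.7 CPM in the controls and 268 ± 39.8 CPM in the knockouts, or 287 CPM without knockout 3. Cldn7, its partner at tight junctions, was at 55.5 ± 21.4 and 45.3 ± 6.9 CPM, and Cdcp1 at 15.5 ± 3.59 and 16.7 ± 3.99 CPM. Met, the receptor of hepatocyte growth factor, was at 7.71, 3.41, 8.8 and 8.21 CPM in the controls and 13.5, 16.1, 14.2 and 17.8 CPM in the knockouts. All knockouts were above all controls (log2 fold change, 1.13 ± 0.28 SE, adjusted p = 0.274, edgeR), and DESeq2 called it higher.

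**Figure D5:**
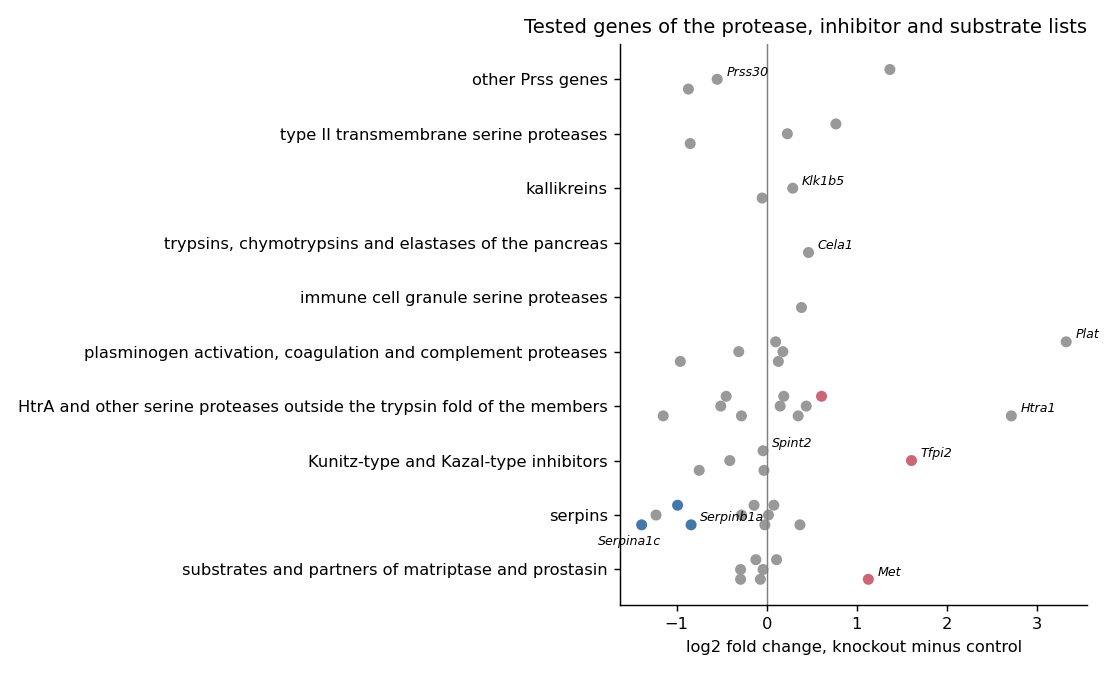
Fitted log2 fold change, knockout minus control, of tested genes of the 10 lists (1 point per gene, the members and a gene not reported here left out); red points had every knockout above every control and blue points every knockout below. The red points are Tfpi2, Met and Prep, the blue ones Serpinb1a, Serpina1c and Serpini1, and Plat, at 3.33, is farthest from 0.

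Markers of other epithelial cells were examined beside these values. All 4 enteroendocrine markers were fitted lower in the knockouts (Chga, Chgb, Neurod1 and Tph1, median -2.12), and their sum was 114 to 339 CPM in the controls and 17.7 to 134 CPM in the knockouts, with Tph1 at 0 in knockouts 2 and 3. All 4 tuft markers were fitted lower too (median, -0.95), with sums of 118 to 337 and 58.2 to 225 CPM. Enterocyte markers, of which 3 of 4 tested were lower, summed to 88.7 to 273 and 26.2 to 189 CPM. Stem cell markers (3 of 4 lower) summed to 557 to 1240 and 190 to 792 CPM, mostly from Olfm4 (means, 874 and 405 CPM). Ascl2 was at 8.22 and 4.6 CPM, while Lgr5 (47.3 and 48.8 CPM) and Smoc2 (54.4 and 52.6 CPM) hardly differed. Goblet markers (3 of 6 lower) summed to 1770 to 4270 and 1650 to 4010 CPM. Those fitted lower were Fcgbp (114 ± 106 and 24.1 ± 8.12 CPM), Zg16 (89.9 ± 144 and 2.55 ± 4.54 CPM) and Tff3. Muc2, Clca1 and Agr2 were fitted higher. Of the 22 tested markers of these 5 lists, edgeR called 0, and 10 (45.5%) had an unadjusted p under 0.05, against 6.88% of all genes. DESeq2 called 3 lower (Chga, Neurod1 and Fabp2) of 38 over all genes, and limma-voom 2 (Neurod1 and Fabp2) of 17. Their part in the Prss56 counts was not tested.

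Markers of cells outside the epithelium were mostly low. The 8 markers of enteric glia and Schwann cells summed to 3.31 to 5.65 CPM in the controls and 4.7 to 10.9 CPM in the knockouts. Sox10, which defines these cells, was at 0 in all 8 libraries, Gfap had 1 count in all, Cdh19 at most 3 and Ngfr at most 2 in a library. Egr2, which boundary cap cells also express, was at 1.44, 3.09, 3.5 and 1.34 CPM in the controls and 6.59, 8.9, 1.41 and 6.07 CPM in the knockouts. Its part in the Prss56 counts was not tested. The 6 stromal markers summed to 0.552 to 1.26 and 0.95 to 1.76 CPM. The 3 endothelial markers summed to 3.39 to 5.56 and 4.02 to 6.34 CPM, nearly all from Pecam1. The 6 immune markers summed to 142 to 470 and 171 to 625 CPM, nearly all from Lyz2, a lysozyme gene whose near-identical copy Lyz1 is a Paneth cell gene, and Cd3e, Cd79a and Cpa3 had at most 1 count in a library. Ptprc, the general leukocyte marker, was counted 201, 106, 43 and 37 times in the controls and 185, 157, 11 and 32 times in the knockouts.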

How the data were processed

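Libraries of sorted Paneth cells (4 control, 4 knockout) were assigned to groups by labelled genotype. The number of a replicate only names it. The authors mapped reads to mm10 with GSNAP and assigned unique alignments to Ensembl genes with featureCounts 1.6.3. What they deposited are integer counts per gene that were not normalized, and 92 spike-in rows (at most 7 counts in a library each) were left out. No 2 libraries were closer than sampling noise allows (smallest chi-square per degree of freedom, 10.78).

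From the counts, TMM factors and robust quasi-likelihood fits were computed with edgeR 4.0.16 in R 4.3.3 for the 13439 genes that passed filterByExpr (minimum count 10, minimum total 15), with Benjamini-Hochberg adjustment over all of them. The common biological coefficient of variation was 0.376, and a count of 3 corresponds to 0.172 to 0.352 CPM. Standard errors were taken from the log2 fold change and the F statistic of its test. Alternatives were other scalings, no filter or a stricter filter, DESeq2 1.42.0, limma-voom with sample quality weights (limma 3.58.1), the library set as a block, a 10% false discovery rate without the limit on the fold change, and each library left out in turn. The scripts were tested on simulated data.

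The members and lists were chosen with earlier results of these data known. In each list, called genes, the 3 with the highest level per kilobase and the 2 with the smallest p were named, except for genes that were fitted and counted but are not reported here. Symbols matched 53620 of 53801 genes. Sequences are from GENCODE M21 transcripts and from RefSeq (GRCm38.p6), where 8 of the 10 genes had a promoter; Prss8 and St14 had none there.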

Additional observations from a re-analysis of the deposited data

How the results depend on the processing

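The lower bound of the Prss56 fold, a ratio of means, kept its size under each alternative run (67.2 to 84). The number of genes called did not. Against 21 higher and 4 lower in the knockouts, no filter gave 221 and 69, DESeq2 100 and 38, limma-voom with quality weights 78 and 17, and a 10% false discovery rate without the fold limit 31 and 7. With each library left out in turn, 9 to 133 were called higher and 1 to 19 lower. The count moved by more than 1.5 times for every library left out, in 1 direction at least, and the highest counts, 133 and 19, came without knockout 3. For the list genes, of which 0 were called, no filter gave 6 higher and 1 lower, DESeq2 4 and 1, limma-voom 2 and 1, and libraries left out 0 to 4 higher and 0 lower, with the 4 reached without knockout 3. The cause was not tested. With other scalings, the stricter filter or the library set as a block, these counts stayed within 1.5 times. The pattern of 0 in every control was met by 2 genes at a minimum of 5 counts. Of the fitted log2 fold changes of the other 7 members, that of Prss23 ranged from -0.28 to 1.27, Klk1 from -0.15 to 0.41, St14 from -0.17 to 0.47 and Tmprss2 from -0.43 to 0.15, while Prss32 (-0.67 to -0.09), Prss8 (-0.56 to -0.11) and Spint1 (-0.43 to -0.07) stayed below 0 under the 18 alternatives run for each. No paired analysis was possible because the genotypes share 1 animal number, that of control 4 and knockout 4, and no other, and the labels name no litters. The methods call the sorted mice littermates. With the library set as a block, 20 genes were called higher and 4 lower. Prss12 and Prss27, with at most 13 counts in a library, did not pass the filter.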
